A study of Mus musculus with 12 samples.

Results

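Vitamin A handling in fat was followed through 9 genes of the 23163 in the deposited table, taken by name for their known roles. They are the retinol and retinal oxidoreductases Dhrs9, Dhrs3, Rdh10 and Rdh11, the retinal dehydrogenases Aldh1a1, Aldh1a2 and Aldh1a3, the retinoic acid hydroxylase Cyp26b1 and the retinol uptake receptor Stra6. All 9 were in the table. RNA sequencing covered brown fat (brown adipose tissue, BAT) and the white fat under the skin (subcutaneous WAT, sWAT) of male wild-type C57Bl/6 mice, 8 to 12 weeks old, held for 72 hours at 4 °C (cold) or at 30 °C (thermoneutral, a temperature that calls for no extra heat production). The groups were BAT cold, BAT thermoneutral, sWAT cold and sWAT thermoneutral, with 3 libraries in each of the 4 groups, numbered by the experiment their titles name, from a study of 20 mice with 10 at each temperature. Whether each library holds 1 animal or a pool is not stated, so p-values measure the spread between these libraries, which may be technical.

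Retinol reaches cells bound to the plasma carrier Rbp4, and Stra6 is a membrane receptor that lets it in. Inside the cell retinol and retinal are interconverted by short-chain dehydrogenases, and retinal is oxidised irreversibly to retinoic acid by the Aldh1a enzymes. Retinoic acid binds nuclear receptors of the Rar family, which pair with Rxr receptors on DNA, and Cyp26 enzymes break it down. In brown fat, Ucp1, the uncoupling protein that turns respiration into heat, is a known retinoic acid target.

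Libraries held 27117934 to 56243016 counts. The sWAT thermoneutral libraries stood apart from the other 9. Mitochondrially encoded genes took 0.181% to 0.307% of their counts, against 17.6% to 53.8% in the other groups, and ribosomal protein genes took 7.19% to 8.15%, against 0.341% to 1.86%. The slope of log2 level on GC content, per 10 percentage points, was 0.804 to 1.37 in sWAT thermoneutral libraries, against -0.748 to 0.232 elsewhere. Any batch that set the 3 sWAT thermoneutral libraries apart cannot be told apart from temperature in sWAT, nor from tissue at thermoneutrality. The same holds for the difference between the sWAT and BAT responses to cold, which includes these libraries. BAT cold library 3 had 53.8% mitochondrial counts and a GC slope of -0.748, against 24.4% and 20.0% and slopes of 0.152 and 0.232 in BAT cold libraries 1 and 2. Among sWAT cold libraries, library 1 had 3211 CPM of Ucp1 (CPM are counts scaled to a common library size with edgeR's TMM factors), against 13212 and 11603 CPM in libraries 2 and 3. Summed brown adipocyte markers were 23838 to 27840 CPM in BAT cold and 5845 to 6562 CPM in BAT thermoneutral libraries, with no marker at 0, and Ucp1, which rose with cold, carried that gap with a mean of 21898 CPM in cold and 1929 CPM at thermoneutrality. Cidea averaged 3974 CPM in BAT cold and 3695 CPM in BAT thermoneutral libraries, and Ppara averaged 74.3 CPM in BAT cold and 106 CPM in BAT thermoneutral libraries. Cox8b averaged 349 CPM in cold and 493 CPM at thermoneutrality. Zic1 averaged 21.9 CPM in BAT cold and 9.07 CPM in BAT thermoneutral libraries, and Lhx8 averaged 3.22 CPM and 1.72 CPM. None of these 5 was called, and the median log2 fold change of the brown adipocyte markers in BAT was 0.56. Lymphocyte markers summed to 2.02 to 6.39 CPM in BAT, against 130 to 648 CPM in sWAT. Values of marker sums stand beside the results they move with. In whole tissue, fewer cells of a type and less RNA per cell cannot be told apart.

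Dhrs9 had the largest change of the 9 genes in both tissues. It encodes a short-chain dehydrogenase that oxidises retinol to retinal, and lies on chromosome 2 (ENSMUSG00000027068.6, mm10, 69380445 to 69404533, plus strand, 5 exons). Aldh1a1 fell in cold BAT and rose in cold sWAT. It encodes the retinal dehydrogenase best known from white fat, and lies on chromosome 19 (ENSMUSG00000053279.8, mm10, 20492715 to 20643465, plus strand). The 300 bases around their starts (250 before and 50 after) are shown because these are the members that changed with cold in both tissues. The sequences are from RefSeq on GRCm38.p6, 5′ to 3′ on the gene's strand. Capitals mark a match to AGGTCA, the core that nuclear receptors bind, on either strand.
Dhrs9, chr2:69380212-69380511 (+): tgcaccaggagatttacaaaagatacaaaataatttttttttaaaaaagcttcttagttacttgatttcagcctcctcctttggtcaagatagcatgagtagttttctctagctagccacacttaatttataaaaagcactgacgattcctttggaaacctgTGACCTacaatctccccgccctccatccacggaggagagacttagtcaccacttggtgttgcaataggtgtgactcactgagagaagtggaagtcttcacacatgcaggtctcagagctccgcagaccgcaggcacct
Aldh1a1, chr19:20492333-20492632 (+): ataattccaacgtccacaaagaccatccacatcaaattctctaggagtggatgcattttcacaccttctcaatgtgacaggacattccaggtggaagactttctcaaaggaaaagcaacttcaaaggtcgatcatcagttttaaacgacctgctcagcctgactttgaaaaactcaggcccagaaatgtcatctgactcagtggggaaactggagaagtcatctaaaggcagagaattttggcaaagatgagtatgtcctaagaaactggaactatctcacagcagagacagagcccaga
Aldh1a1, chr19:20601718-20602017 (+): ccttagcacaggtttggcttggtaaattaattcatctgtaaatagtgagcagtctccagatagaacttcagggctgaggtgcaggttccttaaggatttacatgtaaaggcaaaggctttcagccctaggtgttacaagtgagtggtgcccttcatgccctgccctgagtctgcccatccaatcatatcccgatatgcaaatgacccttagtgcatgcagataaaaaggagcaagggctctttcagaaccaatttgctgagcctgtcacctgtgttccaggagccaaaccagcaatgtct
The Dhrs9 window holds 1 such core, on the opposite strand and starting 88 bases before RefSeq's start, where it reads TGACCT. Neither Aldh1a1 window holds one, the second being around a start that RefSeq places inside the gene. Of the 32851 promoter windows in the RefSeq table, 5340 (16.3%) hold it. Direct repeats of this exact core with 2 or 5 bases between (AGGTCANNAGGTCA and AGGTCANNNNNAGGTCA, both strands) were searched too. These are spacings known from retinoic acid response elements. An element whose cores differ from AGGTCA by a letter would be missed. Neither repeat is in any of the 14 windows found for 7 of the 9 genes, and each is in 3 of the 32851 windows. Rdh10 and Aldh1a3 have no window in that table. A match is a string of letters only, and the absence of one covers these exact letters and these windows only.

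Dhrs9 measured 95.3, 101 and 161 CPM in the BAT cold libraries, against 2.79, 2.74 and 10.2 CPM in the BAT thermoneutral libraries. Every cold library was above every thermoneutral one. The fitted level in cold BAT was 23.3-fold the thermoneutral level (95% interval 9.02 to 60.4), a log2 fold change of 4.54 ± 0.60 (SE, n = 3 per group; edgeR's quasi-likelihood test, adjusted p = 0.00435). In sWAT, Dhrs9 measured 16.1, 71.9 and 64.1 CPM in cold, against 0.256, 0.315 and 0.341 CPM at thermoneutrality. The thermoneutral values rest on 11, 13 and 18 counts, a level near the lower end of what was tested, and sWAT cold library 1 was the lowest of the cold libraries. The log2 fold change in sWAT was 7.35 ± 0.63 (edgeR, adjusted p = 0.000218), or 163-fold with a 95% interval of 59.9 to 442. Without sWAT cold library 1 it was 7.77 ± 0.28 (edgeR, adjusted p = 3.03e-06). Brown adipocyte markers summed to 4329, 16395 and 14432 CPM in the sWAT cold libraries, against 255 to 1115 CPM in sWAT thermoneutral libraries. Of 5 tested, 3 were called higher in cold, where 25.1% of all genes tested in sWAT were called higher. In sWAT thermoneutral library 1, 1 marker was at 0, but none was at 0 in a whole group. Ucp1 made up most of those cold sums, at a mean of 9342 CPM, and Cidea averaged 1994 CPM there, against 231 CPM in sWAT thermoneutral libraries. In BAT only Ucp1, 1 of 6, was called higher, where 6.82% of all genes tested in BAT were. Their part in the Dhrs9 results was not tested. Dhrs9 passed the threshold in all 19 alternatives run for BAT and in all 18 run for sWAT.

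**Figure D1:**
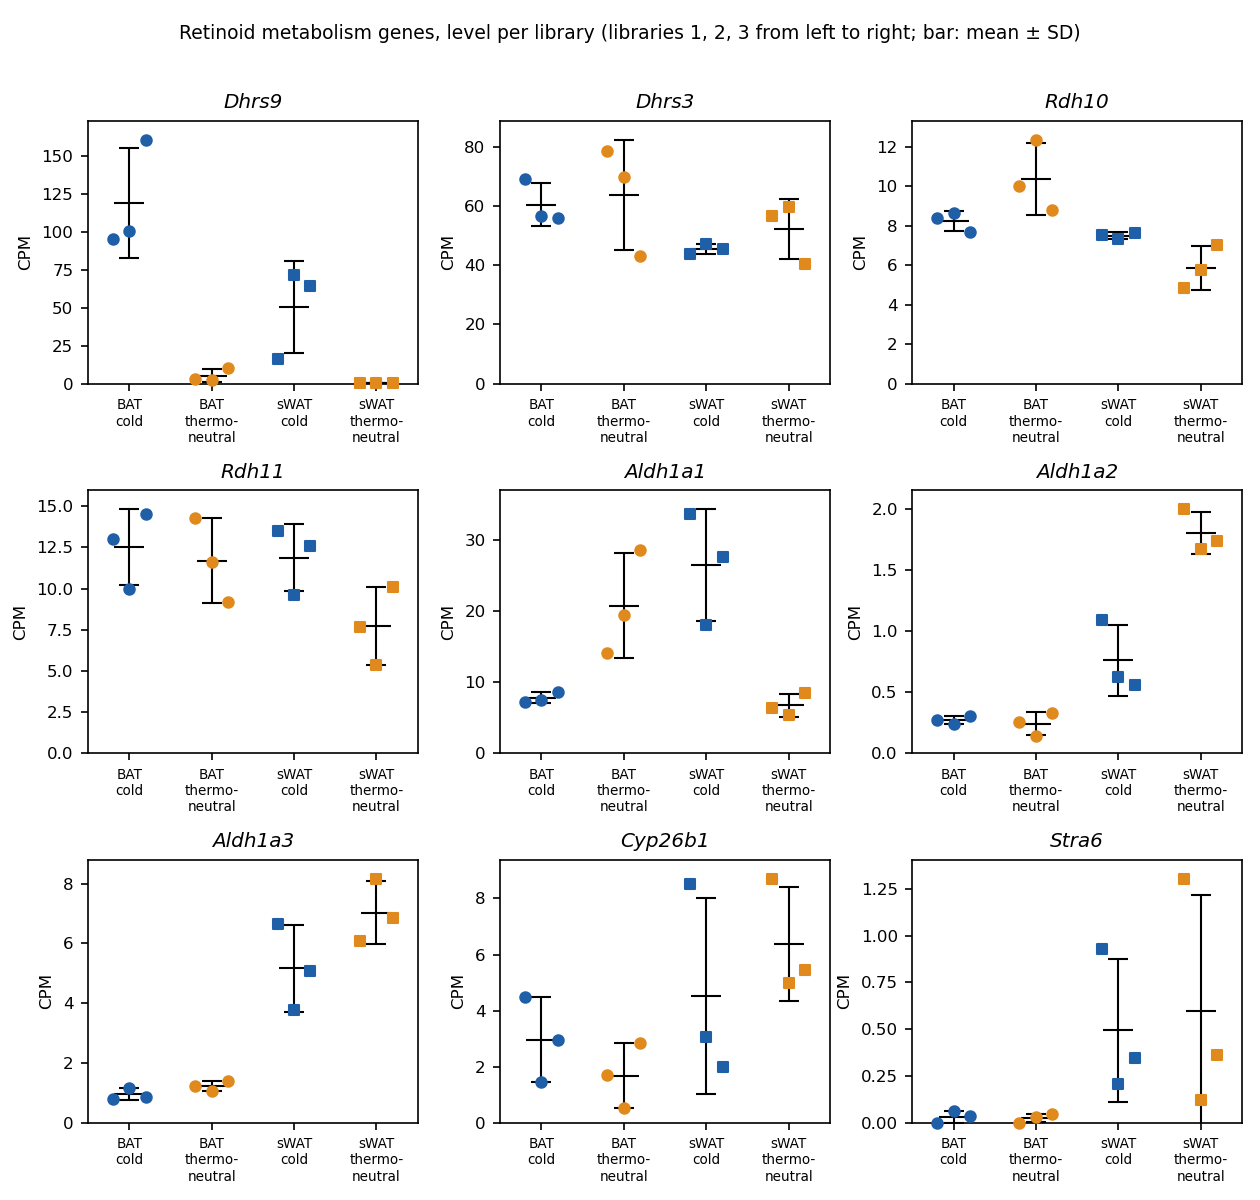
Level of each of the 9 genes in CPM (vertical axes, linear, each with its own scale) in BAT cold, BAT thermoneutral, sWAT cold and sWAT thermoneutral libraries. Points are libraries 1 to 3 from left to right, bars are mean ± SD (n = 3). Dhrs9 is high in both cold groups, and Aldh1a1 is high in BAT thermoneutral and sWAT cold libraries.

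Dhrs9 also differed in how far it responded and in where it started. The response to cold was larger in sWAT than in BAT by 2.87 ± 0.84 on the log2 scale (edgeR interaction test, adjusted p = 0.0250). That difference was lost in 10 of 24 alternatives, among them a correction for GC content (1.73, adjusted p = 0.164) and the removal of BAT thermoneutral library 3 (1.95, adjusted p = 0.0657), the thermoneutral library with the highest Dhrs9. At thermoneutrality the gene was higher in BAT than in sWAT by 4.10 ± 0.67 (log2; edgeR, adjusted p = 0.000205). In cold the BAT and sWAT values did not overlap, but the difference of 1.23 ± 0.55 (log2) did not pass (edgeR, adjusted p = 0.175, 95% interval 0.05 to 2.41).

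Aldh1a1 measured 7.17, 7.50 and 8.64 CPM in BAT cold libraries, against 14.1, 19.5 and 28.6 CPM in BAT thermoneutral libraries. The ranges did not overlap, and the thermoneutral libraries were the more scattered. The gene fell in cold BAT by 1.36 ± 0.32 on the log2 scale (edgeR, adjusted p = 0.0300), to 0.388 of the thermoneutral level (95% interval 0.233 to 0.646). It no longer passed when BAT cold library 1 (-1.29, adjusted p = 0.122), BAT cold library 2 (-1.36, adjusted p = 0.119) or BAT thermoneutral library 2 (-1.39, adjusted p = 0.0947) was left out. sWAT held 33.6, 18.0 and 27.6 CPM in cold, against 6.37, 5.31 and 8.47 CPM at thermoneutrality. Again the ranges did not overlap, with the cold libraries on the high side. The rise was 1.98 ± 0.33 on the log2 scale, or 3.93-fold with a 95% interval of 2.34 to 6.61 (edgeR, adjusted p = 0.00183), and it passed in all 18 alternatives. Without sWAT cold library 1, the highest of them, it was 1.75 ± 0.31 (edgeR, adjusted p = 0.00123).

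The response of Aldh1a1 in sWAT exceeded that in BAT by 3.39 ± 0.46 on the log2 scale (edgeR interaction test, adjusted p = 0.000682), and by 2.70 to 3.58 over 24 alternatives, all past the threshold. The tissues changed places: the gene was higher in BAT than in sWAT at thermoneutrality by 1.63 ± 0.32 (log2; edgeR, adjusted p = 0.000843) and lower in BAT than in sWAT in cold, with a difference of -1.77 ± 0.32 (log2; edgeR, adjusted p = 0.00256). Aldh1a7, a close mouse paralog of Aldh1a1, measured 51.1, 43.4 and 47.8 CPM in BAT cold, against 59.3, 75.9 and 63.8 CPM in BAT thermoneutral libraries. Its sWAT levels were 137, 71.2 and 97.4 CPM in cold, against 25.7, 15.9 and 19.5 CPM at thermoneutrality. It rose in sWAT by 2.32 ± 0.33 (log2; edgeR, adjusted p = 0.000988), its change in BAT of -0.43 ± 0.24 did not pass (adjusted p = 0.270), and its response differed between sWAT and BAT by 2.81 ± 0.39 (adjusted p = 0.000747). How reads shared by such near-identical copies were counted is not given in the sources used here, so the split between the 2 genes is uncertain.

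The other retinal dehydrogenases were higher in sWAT than in BAT. Aldh1a2 (chromosome 9, mm10, 71215789 to 71296243) makes retinoic acid in the embryo and in mesothelial and dendritic cells. It measured 1.09, 0.626 and 0.564 CPM in sWAT cold, against 2.00, 1.67 and 1.74 CPM in sWAT thermoneutral libraries. All cold values were lower, on 18 to 59 counts each in cold. The gene fell by 1.22 ± 0.40 on the log2 scale (edgeR, adjusted p = 0.0326), a call lost in 7 of 18 alternatives, including the removal of sWAT cold library 2 (-1.08, adjusted p = 0.110) or 3 (-1.04, adjusted p = 0.131) and of thermoneutral library 1 (-1.13, adjusted p = 0.0756), 2 (-1.30, adjusted p = 0.0662) or 3 (-1.24, adjusted p = 0.0569), and a fit with the experiment number as a block (-1.29, adjusted p = 0.0510). Dendritic cell markers summed to 32.8 to 65.8 CPM in sWAT cold and 94.8 to 163 CPM in sWAT thermoneutral libraries, with 1 of 6 markers called higher and 2 lower in cold and none at 0. The mesothelial list summed to 2.35 to 3.54 CPM in sWAT cold and 2.16 to 7.07 CPM in sWAT thermoneutral libraries, with Wt1 at 0 in all cold ones and 1 of 3 tested markers lower. Over all genes tested in sWAT, 25.1% were called higher and 24.1% lower. The part of either cell type in the Aldh1a2 result was not tested. In BAT, Aldh1a2 had 5 to 14 counts a library and was not tested by the filter on low counts.

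Aldh1a3, the third retinal dehydrogenase (chromosome 7, mm10, 66390890 to 66427517), measured 6.65, 3.75 and 5.07 CPM in sWAT cold, against 6.09, 8.15 and 6.84 CPM in sWAT thermoneutral libraries. These ranges overlapped, and the difference of -0.44 ± 0.31 (log2) did not pass (edgeR, adjusted p = 0.268, 95% interval -1.14 to 0.27). In BAT it measured 0.806, 1.17 and 0.874 CPM in cold, against 1.23, 1.05 and 1.38 CPM at thermoneutrality. It was lower in BAT than in sWAT at both temperatures, with a difference of -2.52 ± 0.32 at thermoneutrality (log2; edgeR, adjusted p = 3.13e-05) and of -2.43 ± 0.32 in cold (adjusted p = 0.000235), in all 24 alternatives each. Aldh1a2 averaged 0.241 CPM in BAT thermoneutral and 1.81 CPM in sWAT thermoneutral libraries. In cold it averaged 0.271 CPM in BAT and 0.761 CPM in sWAT libraries. Aldh1a2 passed the filter on low counts in the fit over both tissues through the sWAT libraries. Its tissue differences are therefore given as levels, with no test.

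The 3 Aldh1a members held unequal shares of their own summed level. Levels of different genes are compared per length, as CPM per kb of the longest GENCODE transcript. Aldh1a7 is outside that sum, at a mean of 22.9 CPM per kb in BAT cold libraries, against 3.29 for Aldh1a1. The shares are therefore of these 3 genes only. Of the summed CPM per kb of the 3 Aldh1a genes, Aldh1a1 made up a mean of 89.2% in BAT cold (range 87.7% to 90.4%), 94.7% in BAT thermoneutral (92.7% to 95.8%), 85.8% in sWAT cold (84.8% to 87.2%) and 49.7% in sWAT thermoneutral libraries (42.0% to 56.6%). At thermoneutrality in sWAT, Aldh1a3 held 36.2% (31.3% to 44.2%) and Aldh1a2 14.1% (12.1% to 16.5%). Such shares within a library do not depend on its scaling, but they can shift with GC content. It was 46.1% for Aldh1a1, 50.6% for Aldh1a2 and 49.9% for Aldh1a3. The GC slope was highest in the sWAT thermoneutral libraries, at 0.804 to 1.37. No share was corrected for GC content, and its part in the shares was not tested. The sum itself was 3.39 to 4.05 CPM per kb in BAT cold, against 6.43 to 12.7 in BAT thermoneutral libraries, and 9.0 to 16.7 in sWAT cold, against 5.35 to 6.35 in sWAT thermoneutral libraries. In both tissues the ranges of the sum did not overlap between temperatures, and they lay in opposite order.

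**Figure D2:**
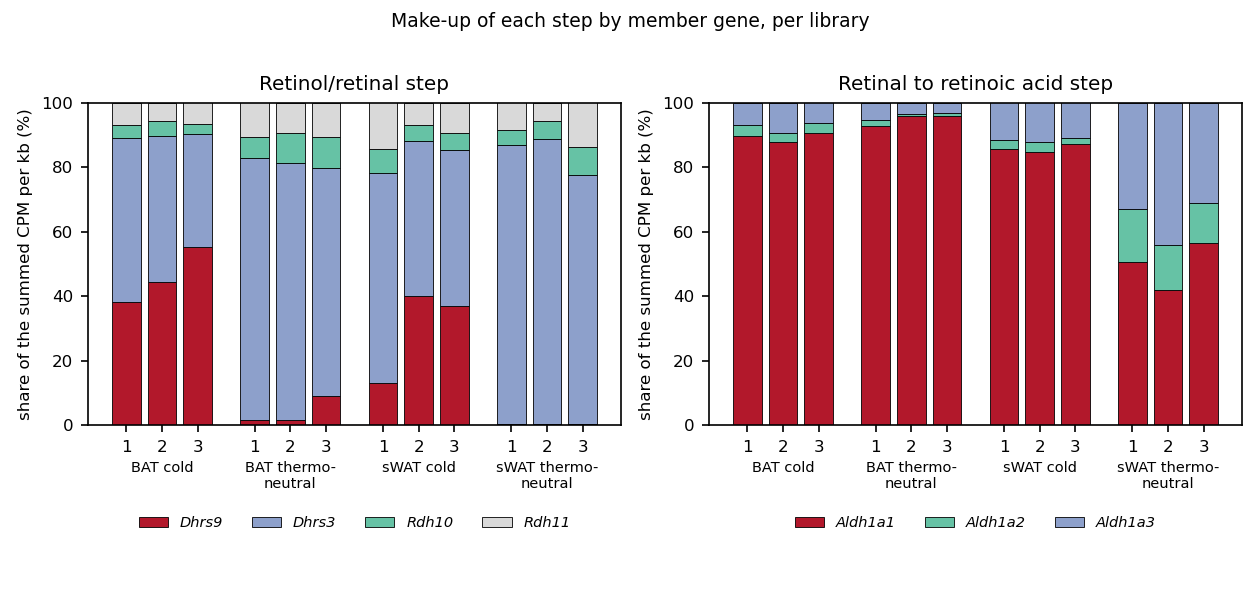
Share of a summed CPM per kb (vertical axes, percent) that each member holds, per library. The left sum is over Dhrs9, Dhrs3, Rdh10 and Rdh11, which act on retinol and retinal in both directions. The right sum is over Aldh1a1, Aldh1a2 and Aldh1a3, which oxidise retinal to retinoic acid. Other genes of these steps are in neither sum. Dhrs9 takes 38.3% to 55.2% of the left sum in BAT cold libraries. Aldh1a1 takes 42.0% to 56.6% of the right sum in sWAT thermoneutral libraries.

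Dhrs3, Rdh10 and Rdh11, the other retinol and retinal oxidoreductases among the members, did not pass in either temperature comparison. Dhrs3, which reduces retinal back to retinol (chromosome 4, mm10, 144892827 to 144928209), measured 69.0, 56.5 and 55.9 CPM in BAT cold, against 78.5, 69.8 and 43.0 CPM in BAT thermoneutral libraries. Its sWAT levels were 43.7, 47.1 and 45.5 CPM in cold, against 56.6, 59.6 and 40.6 CPM at thermoneutrality. Its log2 fold changes were -0.02 in BAT (edgeR, adjusted p = 0.977, 95% interval -0.67 to 0.64) and -0.20 in sWAT (adjusted p = 0.486, -0.72 to 0.32). In sWAT the cold libraries lay within the thermoneutral range. Rdh10, a retinol dehydrogenase required in the mouse embryo (chromosome 1, mm10, 16105774 to 16133734), measured 8.42, 8.67 and 7.70 CPM in BAT cold, against 10.0, 12.3 and 8.78 CPM in BAT thermoneutral libraries, a log2 difference of -0.27 ± 0.27 (edgeR, adjusted p = 0.530). In sWAT it measured 7.54, 7.33 and 7.64 CPM in cold, against 4.84, 5.75 and 7.01 CPM at thermoneutrality. The ranges did not overlap in either tissue, yet neither difference passed (in sWAT 0.35 ± 0.27, adjusted p = 0.297). Rdh10 was higher in BAT than in sWAT at thermoneutrality by 0.82 ± 0.25 (log2; edgeR, adjusted p = 0.0113).

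Rdh11, a retinal reductase (chromosome 12, mm10, 79174337 to 79192293), measured 13.0, 10.0 and 14.5 CPM in BAT cold, against 14.3, 11.6 and 9.18 CPM in BAT thermoneutral libraries. Its sWAT levels were 13.5, 9.62 and 12.6 CPM in cold, against 7.65, 5.39 and 10.1 CPM at thermoneutrality. The ranges overlapped in both tissues, and the log2 differences of 0.15 in BAT (edgeR, adjusted p = 0.755) and 0.62 in sWAT (adjusted p = 0.131) did not pass. Among Dhrs9, Dhrs3, Rdh10 and Rdh11, Dhrs3 led where Dhrs9 was low. It held 70.6% to 81.1% of the summed CPM per kb of these 4 genes in BAT thermoneutral libraries. In sWAT thermoneutral libraries it held 77.2% to 88.5%. Dhrs9 held a mean of 45.9% in BAT cold (38.3% to 55.2%), against 4.15% in BAT thermoneutral libraries (1.57% to 9.18%). In sWAT it held 30.1% in cold (13.1% to 40.0%), against 0.275% at thermoneutrality (0.214% to 0.354%). GC content was 43% for Dhrs9 and 52.4% for Dhrs3, and its part in these shares was not tested. In cold BAT, Dhrs9 at 22.3 to 37.5 CPM per kb overlapped Dhrs3 at 23.9 to 29.5, so the order of these 2 is not resolved. In each of the other groups Dhrs3 ranked first among the 9 members without overlap. Further dehydrogenases are outside the sum of 4. In BAT cold libraries Dhrs7 averaged 239 and Rdh13 18.6 CPM per kb, against 27.8 for Dhrs9. The 4 genes also act in both directions, so these are not shares of a single reaction.

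Cyp26b1, which hydroxylates retinoic acid for removal (chromosome 6, mm10, 84571414 to 84593908), measured 4.48, 1.45 and 2.96 CPM in BAT cold, against 1.70, 0.509 and 2.83 CPM in BAT thermoneutral libraries. The sWAT libraries held 8.51, 3.07 and 2.00 CPM in cold, against 8.70, 4.97 and 5.44 CPM at thermoneutrality. The groups overlapped in both tissues, and neither log2 difference passed (0.86 ± 0.62 in BAT, edgeR, adjusted p = 0.387; -0.48 ± 0.53 in sWAT, adjusted p = 0.482). Without sWAT cold library 1 the sWAT difference was -1.34 ± 0.37 and passed (adjusted p = 0.0131), and with the GC correction it was 0.37 (adjusted p = 0.620), so its direction is not settled. At thermoneutrality Cyp26b1 was lower in BAT than in sWAT, with a difference of -1.91 ± 0.64 (log2; edgeR, adjusted p = 0.0206), but of -0.79 with the GC correction (adjusted p = 0.350). That call held in 19 of 24 alternatives. It was also lost without BAT thermoneutral library 1, BAT thermoneutral library 2 or sWAT thermoneutral library 1. The related Cyp26a1 and Cyp26c1 were at or under 0.326 CPM in every library and were not tested.

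Stra6 (chromosome 9, mm10, 58063788 to 58153996) was close to undetected in BAT, with 0, 2 and 1 counts in cold and 0, 1 and 2 counts in thermoneutral libraries. In sWAT it had 50, 7 and 11 counts in cold, against 56, 5 and 19 counts at thermoneutrality. Library 1 held most of the counts of each sWAT group. Epithelial markers were also highest in those libraries, with summed CPM of 2.19, 1.04 and 0.846 for sWAT cold and 5.58, 1.55 and 2.64 for sWAT thermoneutral libraries, against 0.134 to 0.235 CPM in BAT cold and 0.164 to 0.254 CPM in BAT thermoneutral libraries, where Krt5, Krt14 and Cldn4 were at 0. The mesothelial sums were 3.54, 2.80 and 2.35 for sWAT cold, against 7.07, 2.98 and 2.16 for sWAT thermoneutral libraries. BAT was not lower by this list, with sums of 2.82 to 4.30 CPM in cold and 3.19 to 4.45 CPM at thermoneutrality. Most of that was Lrrn4, at a mean of 2.88 CPM in BAT cold and 3.29 CPM in BAT thermoneutral libraries. The part of these cells in the Stra6 level was not tested. The BAT level was 0.0618 of the sWAT level in cold (95% counting interval 0.0124 to 0.188) and 0.0486 at thermoneutrality (0.00982 to 0.147), intervals that cover counting error only. Stra6 passed the filter on low counts through the sWAT libraries alone, so its tissue difference is given as counts, with no test. The temperature difference in sWAT of -0.22 ± 0.84 (log2) did not pass (edgeR, adjusted p = 0.845, 95% interval -2.13 to 1.69).

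**Figure D3:**
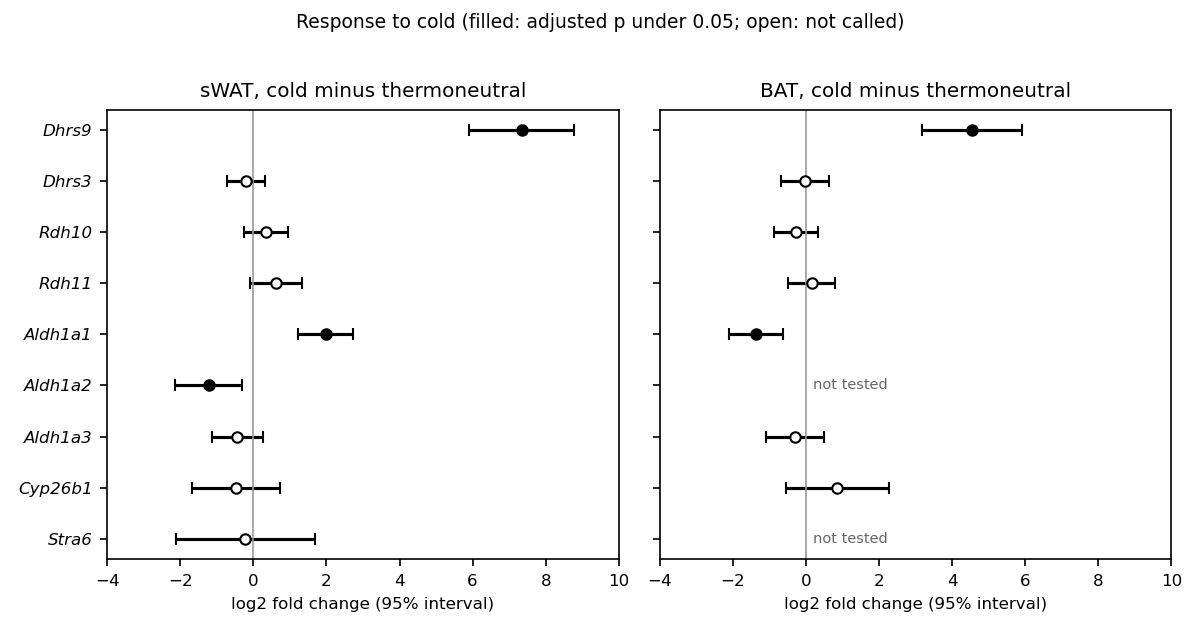
Fitted log2 fold change of cold over thermoneutral (horizontal axes) with its 95% interval for each of the 9 genes in sWAT (left) and BAT (right). Filled points passed an adjusted p of 0.05. Dhrs9 is far to the right in both panels, and Aldh1a1 is right of 0 in sWAT and left of 0 in BAT.

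Counted over the set, 2 of the 7 members tested in BAT were called, Dhrs9 up and Aldh1a1 down, where 12.2% of all 14612 genes tested were called (6.82% higher, 5.34% lower). In sWAT 3 of 9 were called, Dhrs9 and Aldh1a1 up and Aldh1a2 down, where 49.2% of 15731 genes were called (25.1% higher, 24.1% lower). That sWAT count is below the background share, so the number of called members there says nothing about these genes as a set. The response differed between sWAT and BAT for 2 of 9, both larger in sWAT, where 25.1% of 16365 genes were called (17.3% higher, 7.85% lower). Between tissues, where Stra6 and Aldh1a2 entered the fit through the sWAT libraries, 7 of 9 differed at thermoneutrality, 3 higher and 4 lower in BAT, where 58.7% of genes were called (29.9% higher, 28.8% lower). In cold 4 of 9 were lower in BAT and none was higher, where 12.3% of genes were called (1.19% higher, 11.1% lower). Stra6 and Aldh1a2 are among the members counted as lower in BAT at both temperatures. The filter favoured that direction for them, so neither count is read as a result about the set. The median log2 fold change of the tested members was -0.02 in BAT and -0.20 in sWAT, against -0.04 and 0.00 over all genes tested.

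The other known genes of retinoid handling were read from 6 lists. In sWAT the median log2 fold change of the tested members was -1.20 for transport, -0.04 for esters and carotenoids, 0.20 for further dehydrogenases, -0.62 for receptors and 0.53 for retinoic acid targets, against 0.00 over all genes. In BAT the medians were 0.07, 0.72, -0.09, 0.17 and 0.01 in that order, against -0.04 over all genes. Among further dehydrogenases, 3 of 10 tested rose in BAT, where 6.82% of all genes tested were called higher. In sWAT 3 of 11 rose and 1 fell, a share below the 49.2% called over all genes there. Dhrs7, a short-chain dehydrogenase of the same superfamily as Dhrs9, measured 670, 569 and 361 CPM in BAT cold, against 123, 139 and 126 CPM in BAT thermoneutral libraries, a rise of 2.09 ± 0.31 (log2; edgeR, adjusted p = 0.00646). The sWAT libraries held 143, 434 and 374 CPM in cold, against 104, 89.7 and 54.9 CPM at thermoneutrality, a rise of 1.92 ± 0.45 (adjusted p = 0.00765). Cold library 1 was again the lowest of the sWAT cold libraries, and the groups still did not overlap. Rdh13, a mitochondrial retinal reductase, rose by 1.12 ± 0.27 in BAT (edgeR, adjusted p = 0.0320) and by 1.20 ± 0.33 in sWAT (adjusted p = 0.0161). Its BAT call was lost when any of 5 single libraries was left out, as was its sWAT call for 4. Adh4, an alcohol dehydrogenase that accepts retinol, is counted among those 3 in BAT on 10, 22 and 23 counts in cold, against 2, 2 and 3 counts at thermoneutrality. It passed the filter on low counts through the cold libraries alone, so no fold or test is given. The filter favoured a rise for Adh4, so the count of 3 of 10 is not read as a result about the list. Rdh5, known as a retinol dehydrogenase of the eye, fell in sWAT by 1.59 ± 0.31 (edgeR, adjusted p = 0.00365).

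Of the list for retinyl esters and carotenoids, 1 member rose in each tissue, of 5 tested in BAT and 6 in sWAT, where 6.82% and 25.1% of all genes were called higher. It was Retsat, the retinol saturase, with 427, 416 and 383 CPM in BAT cold, against 97.7, 137 and 77.4 CPM in BAT thermoneutral libraries. In sWAT it measured 132, 293 and 279 CPM in cold, against 77.9, 66.8 and 61.6 CPM at thermoneutrality. Every cold library was above every thermoneutral one in both tissues. The rise was 2.03 ± 0.30 in BAT (log2; edgeR, adjusted p = 0.00651) and 1.76 ± 0.34 in sWAT (adjusted p = 0.00356), past the threshold in all 19 and all 18 alternatives. Its responses in sWAT and BAT differed by -0.20 ± 0.45 (edgeR, adjusted p = 0.772).

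**Figure D4:**
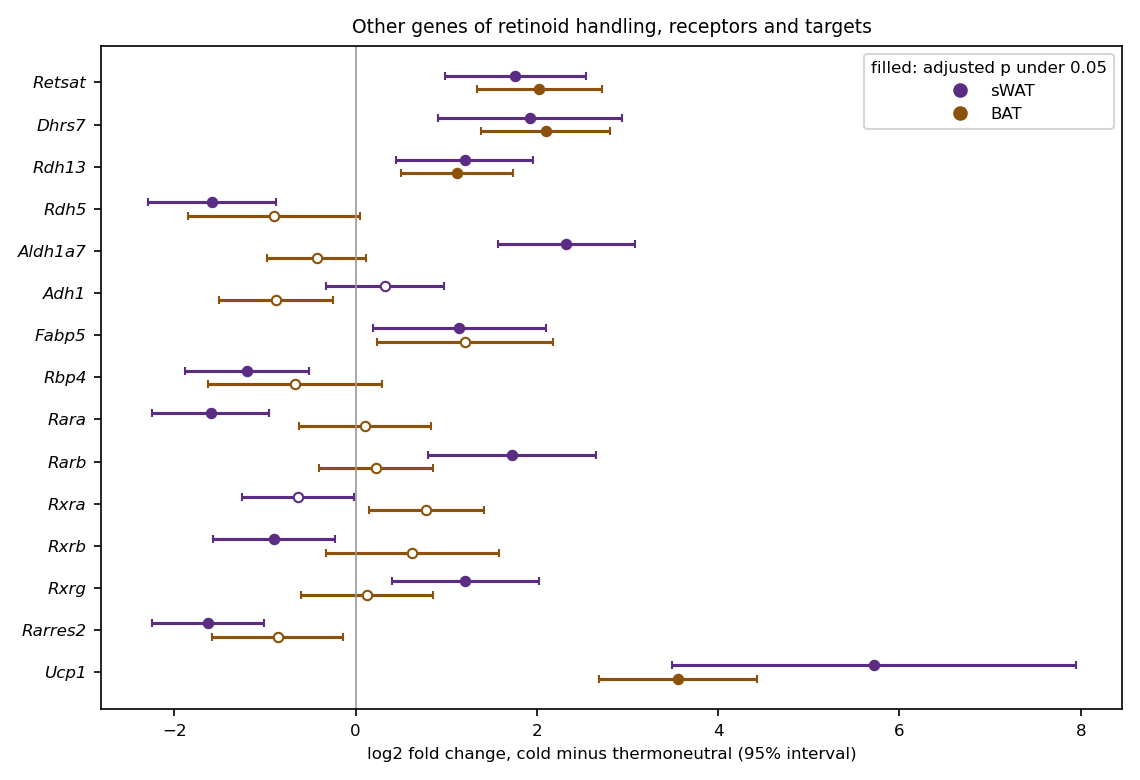
Fitted log2 fold change of cold over thermoneutral (horizontal axis) with its 95% interval in sWAT and BAT for other genes of retinoid handling, receptors and targets. Filled points passed an adjusted p of 0.05. Retsat, Dhrs7, Rdh13 and Ucp1 are right of 0 and filled in both tissues, and no receptor is filled in BAT.

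Of 5 transport genes tested in sWAT, 1 was called higher and 2 lower, where 25.1% of all genes tested were called higher and 24.1% lower. Among the transport genes tested there, Rbp4 fell by 1.20 ± 0.30 (log2; edgeR, adjusted p = 0.0107), but by 0.54 with the GC correction (adjusted p = 0.195). Fabp5, a fatty acid binding protein that also carries retinoic acid, rose by 1.14 ± 0.42 (edgeR, adjusted p = 0.0488), a call that held in 9 of 18 alternatives and not with the experiment block (adjusted p = 0.0988). In BAT 0 of 4 transport genes were called by edgeR and by limma-voom, 1 at an unadjusted p under 0.05 and 1 by DESeq2. With 12.2% of all genes tested called in BAT by edgeR, a count of 0 among so few says nothing about them. In BAT, Fabp5 was not called in the main fit and passed in 5 of 19 alternatives. One of them was the experiment block, with a rise of 1.13 (edgeR, adjusted p = 0.0322).

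Of the 6 receptors, 2 rose and 2 fell in sWAT, where 25.1% of all genes tested were called higher and 24.1% lower. Rara had 18.4, 12.2 and 10.7 CPM in sWAT cold, against 46.1, 44.0 and 35.5 CPM in sWAT thermoneutral libraries, a fall of 1.60 ± 0.28 (log2; edgeR, adjusted p = 0.00234). With the GC correction the fall was 0.57 and did not pass (adjusted p = 0.212). Rarb had 3.45, 7.90 and 8.02 CPM in sWAT cold, against 1.60, 2.67 and 1.55 CPM in sWAT thermoneutral libraries, a rise of 1.72 ± 0.41 (edgeR, adjusted p = 0.00840) that passed in all 18 alternatives. Rxrg rose by 1.21 ± 0.36 (edgeR, adjusted p = 0.0214), passing in 13 of 18 alternatives and not with the experiment block (adjusted p = 0.0596). Rxrb fell by 0.90 ± 0.30 (adjusted p = 0.0320), but its difference was 0.17 with the GC correction. In BAT 0 of the 6 were called by edgeR, DESeq2 or limma-voom, with 1 at an unadjusted p under 0.05 in each. Only 12.2% of all genes tested were called in BAT by edgeR, so that count says nothing about the receptors. The response of Rara in sWAT minus that in BAT was -1.65 ± 0.42 (log2; edgeR, adjusted p = 0.0132), that of Rxra -1.36 ± 0.37 (adjusted p = 0.0191) and that of Rarb 1.56 ± 0.49 (adjusted p = 0.0349). With the GC correction these were -0.68 for Rara (adjusted p = 0.283), -0.59 for Rxra (adjusted p = 0.155) and 1.19 for Rarb (adjusted p = 0.0977), and none passed. The Rarb difference was lost in 11 of 24 alternatives, among them the removal of any of 8 single libraries, and the Rxra difference also without sWAT cold library 3 (-1.33, adjusted p = 0.0508).

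Of the known retinoic acid targets, 1 of 10 tested rose in BAT and 3 of 11 rose and 2 fell in sWAT. These shares are near the 12.2% and 49.2% called over all genes, so the counts say nothing about the targets as a set. Ucp1 rose in both, by 3.56 ± 0.38 in BAT (log2; edgeR, adjusted p = 0.00190) and by 5.72 ± 0.98 in sWAT (adjusted p = 0.00203). Rarb, counted here and among the receptors, was another of those that rose in sWAT. Rarres2, the gene of the adipokine chemerin, fell in sWAT by 1.63 ± 0.27 (log2; edgeR, adjusted p = 0.00185). In BAT, Rarres2 was not called in the main fit and passed in 3 of 19 alternatives. One of them was the experiment block, with a fall of 0.84 (edgeR, adjusted p = 0.0366). In sWAT, macrophage markers summed to 160 to 212 CPM in cold and 612 to 784 CPM at thermoneutrality (4 of 8 lower, 1 higher), and lymphocyte markers to 130 to 371 CPM and 504 to 648 CPM (5 of 8 lower). Progenitor markers went both ways: Col1a1, a collagen chain, fell to a mean of 152 CPM in sWAT cold, against 948 CPM at thermoneutrality, and Pi16 fell too, while the other 6 of 8 were not called and the list's median log2 fold change was 0.46. The sums of that list were 496 to 789 CPM in sWAT cold and 1038 to 1701 CPM in sWAT thermoneutral libraries. Endothelial markers summed to 402 to 507 CPM in sWAT cold and 192 to 348 CPM in sWAT thermoneutral libraries (4 of 6 higher, 1 lower), and general adipocyte markers to 12407 to 19328 CPM in cold and 4938 to 7772 CPM at thermoneutrality (2 of 6 higher). White adipocyte markers summed to 514 to 723 CPM in cold and 702 to 881 CPM at thermoneutrality (3 of 6 lower). Skeletal muscle markers summed to 6800 to 18880 CPM in sWAT cold, against 98.0 to 4310 CPM in sWAT thermoneutral libraries (6 of 8 higher). None of these markers was at 0 in a whole group, and the part of these cell types in the sWAT results was not tested.

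The genes with the most similar pattern were ranked by Pearson's r of log2 CPM over the 12 libraries, among 11197 genes, as a description: the libraries share tissue, temperature and composition, and genes that split the same groups score high. For Dhrs9 the 3 highest were Scarb2, a lysosomal membrane protein (r = 0.992), Arhgef12, a guanine nucleotide exchange factor (0.984), and Ube3c, a ubiquitin ligase (0.984). Scarb2 measured 252, 252 and 332 CPM in BAT cold, against 87.9, 101 and 125 CPM in BAT thermoneutral libraries, and 138, 199 and 207 CPM in sWAT cold, against 36.4, 42.7 and 47.4 CPM in sWAT thermoneutral libraries. Like Dhrs9 it was highest of the BAT thermoneutral libraries in library 3 and lowest of the sWAT cold libraries in library 1, over a narrower range. For Aldh1a1 they were Mc2r, the corticotropin receptor (r = 0.952), Asph (0.913) and Gstz1 (0.913). Mc2r measured 0.851, 1.05 and 1.34 CPM in BAT cold, against 3.62, 3.00 and 6.91 CPM in BAT thermoneutral libraries, and 13.2, 3.55 and 3.35 CPM in sWAT cold, against 0.535, 0.655 and 1.16 CPM in sWAT thermoneutral libraries. It was thus low in the same 2 groups as Aldh1a1.

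For Aldh1a3 they were Ikzf1, a lymphoid transcription factor (r = 0.988), Stc2 (0.987) and H2-DMb2 (0.987). Ikzf1 measured 0.985 to 1.28 CPM in BAT cold and 1.55 to 2.17 CPM in BAT thermoneutral libraries, and 18.2 to 63.6 CPM in sWAT cold and 62.3 to 78.3 CPM in sWAT thermoneutral libraries. For Dhrs3 they were Sema3g (r = 0.856), Dll4 (0.843) and Tie1 (0.830), for Rdh10 Nicn1 (0.964), for Rdh11 Tprkb (0.946) and for Cyp26b1 Myof (0.879). Among the members themselves, r over the 12 libraries was highest for Aldh1a2 with Aldh1a3 (0.923) and lowest for Rdh10 with Aldh1a2 (-0.879). Dhrs9 with Aldh1a1 gave 0.290.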

How the data were processed

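Total RNA from 12 libraries was sequenced as 100 nt read pairs, per the labels' protocols. The authors deposited raw counts per gene symbol, whole numbers without normalization. STAR, DESeq2 and the mm10 build are named in the submitters' processing notes, with no versions. Counting tool, strand setting and annotation: not given in the sources used here. Merged stands at the head of the columns for BAT cold 1 and sWAT cold 2, unexplained. No per-sample column was left unused.

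Counts were analysed with edgeR 4.0.16 in R 4.3.3, and with DESeq2 1.42.0 and limma 3.58.1 as alternatives. The steps were filterByExpr, TMM scaling, glmQLFit with robust=TRUE, glmQLFTest, and Benjamini-Hochberg adjustment over all genes tested, threshold 0.05. The BAT and sWAT temperature comparisons used the 6 libraries of the tissue, and the other 3 comparisons a fit of 4 group means over 12 libraries. The SE is the log2 fold change over the root of F. CPM are scaled by total and TMM factor, and likeness used log2 CPM with a prior count of 2. Gene positions, lengths and GC content came from GENCODE M21, matched for 97.5% of symbols, and no annotated exon of the 9 genes overlaps another gene's. The test was tried on simulated counts. Named genes are the 9 members, called members of 6 pathway lists, and the genes most like each member whose log2 CPM averages 1 or more. Some called list members are not reported here. The members and lists were chosen with earlier results of these data known. Alternatives changed scaling, filter, tool, GC correction, replicate block and the libraries used.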

Additional observations from a re-analysis of the deposited data

Results flagged for a closer look

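The response of Aldh1a1 to cold differed between the tissues. It rose in sWAT and fell in BAT, and the response in sWAT minus that in BAT was 3.39 on the log2 scale, with edgeR's interaction test at an adjusted p of 0.000682 (n = 3 libraries per group). Each sWAT cold library was above each sWAT thermoneutral library, and each BAT cold library was below each BAT thermoneutral library.

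The response of Dhrs9 also differed between the tissues by the same test. It was larger in sWAT than in BAT by 2.87 on the log2 scale (edgeR, adjusted p = 0.0250), with rises in both tissues. The sWAT thermoneutral level rests on 42 counts in all 3 libraries, and the difference was 1.73 with the GC correction (adjusted p = 0.164). For Dhrs9 and for Aldh1a1, any batch of the sWAT thermoneutral libraries cannot be told apart from the difference of responses.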

How the results depend on the processing

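Of the 9 genes, 2 were called in BAT, 3 in sWAT, 2 for the difference of responses, 7 between tissues at thermoneutrality and 4 in cold. The counts between tissues include Stra6 and Aldh1a2, which entered the fit through the sWAT libraries. With limma-voom, the GC correction, or the replicate block with GC correction, 1 was called for the difference of responses. Without both BAT libraries of experiment 3, 2 were called between tissues in cold. Leaving out 1 library at a time gave 1 to 2 in BAT, 2 to 4 in sWAT, 1 to 3 for the responses, 5 to 8 at thermoneutrality and 2 to 4 in cold. Rxrb in sWAT reversed to 0.17 with the GC correction and 0.17 with the replicate block and GC correction.

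Over all genes, the BAT count of 1777 was 2806 with DESeq2, 2799 with the replicate block, 3097 with the GC correction, 3537 with block and GC correction, 6509 without the experiment 3 libraries, and 451 to 588 without BAT cold library 1 or 2 or BAT thermoneutral library 1 or 2. The count of 4108 for the responses was 2443 and 2419 without BAT cold library 1 or 2. The count of 2015 between tissues in cold was 3888 with the GC correction, 3510 with block and GC correction, and 1275, 1113 and 1100 without BAT cold library 1, BAT cold library 2 or sWAT cold library 1. Called genes that were higher made up 56.0% in BAT and 41.5% under upper quartile scaling, which moved the median of all genes to -0.20. For the responses they made up 68.7%, against 58.4% under median-of-ratios scaling, 55.7% with DESeq2 and 55.0% with the GC correction. In cold, 9.68% of the tissue calls were higher in BAT, against 26.0% with DESeq2 and 54.8% with the GC correction, which moved the median to 0.26.

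Deviations from the group means of samples with the same experiment number correlated at 0.306, 0.0666 and 0.289 between cold and thermoneutral in BAT, where different numbers gave -0.380 to 0.239, and BAT thermoneutral library 2 was closest to BAT cold library 1. In sWAT they gave -0.231, 0.187 and -0.313, between tissues in cold -0.468, 0.531 and -0.297, and at thermoneutrality 0.0154, 0.221 and 0.0699, so not every pair was over 0.1 and the block is an alternative. The replicate block called 2 members in BAT and 2 in sWAT, losing Aldh1a2 (-1.29, adjusted p = 0.0510). The cause of these changes was not tested. Depth limits Stra6 and Aldh1a2 in BAT most, at 0 to 14 counts a library.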
